A study of Mus musculus with 12 samples.

Results

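RNA levels of 10 genes that encode brakes on the growth kinase mTORC1, its components, its activator and a target were compared in GC-2 cells. The genes were taken by symbol: Ddit4, Sesn2, Deptor, Tsc1 and Tsc2 (brakes), Mtor, Rptor and Rictor (kinase and partner subunits), Rheb (activator) and Eif4ebp1 (target). All 10 were among the 24770 symbols of the table, and each reached 1 FPKM (the authors' fragment values per unit of transcript length and of mapped fragments) in all 12 libraries. They were therefore among the 12311 genes tested, those with at least 1 FPKM in at least 3 libraries. GC-2 is an established mouse line of wild-type genotype in the labels. There were 3 libraries in each of 4 groups: MLN4924 (1 µM) in hypoxia (1% O2), MLN4924 in normoxia, DMSO in hypoxia and DMSO in normoxia, each for 24 h. DMSO is the solvent, and MLN4924 inhibits the NEDD8-activating enzyme and so keeps NEDD8 off the cullins, without which cullin-RING ubiquitin ligases have little activity. The study's title concerns apoptosis in hypoxia when neddylation is blocked.

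mTORC1 is the kinase mTOR held by the scaffold RAPTOR, and it promotes protein synthesis and holds back autophagy when amino acids, energy and growth factors are sufficient. RHEB bound to GTP switches it on at the lysosome, the TSC1-TSC2 complex switches RHEB off, and REDD1 (made by Ddit4) acts through TSC while sestrin 2 acts through the amino acid branch. Several of these proteins are known ligase substrates: DEPTOR is degraded through the F-box protein that Btrc encodes with cullin 1, and REDD1 and TSC2 have been linked to cullin 4 ligases. Only RNA was measured here, so protein levels and kinase activity were not analysed.

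A single library, DMSO hypoxia replicate 1, was unlike the rest. It totalled 633597 FPKM, against 530452 to 557779 FPKM in the others, and its Spearman correlation with another library of its group was as low as 0.925, whereas no pair within the other groups was below 0.976. Its deviation followed transcript length: against the mean of DMSO hypoxia replicates 2 and 3, the median gene was 0.41 higher on the log2(FPKM + 1) scale among short transcripts (median 914.5 nt) and 0.64 lower among the longest (median 9566 nt). The 10 genes span this range, with Ddit4 (1755 nt) and Eif4ebp1 (1997 nt) at the short end and Rictor (9312 nt), Mtor (8564 nt) and Deptor (8547 nt) at the long end. Fold changes of the members and counts of calls that use the DMSO hypoxia group are therefore given with and without that library. The deviations of Ddit4 (0.24), Eif4ebp1 (0.21) and Deptor (-0.66) lay close to the medians of genes of their length (0.24, 0.19 and -0.64). Tsc2, at -1.80, was below the 10th percentile of its length bin (-1.34), and Rheb, at 0.51, was above the 90th percentile of its own (0.40).

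**Figure D1:**
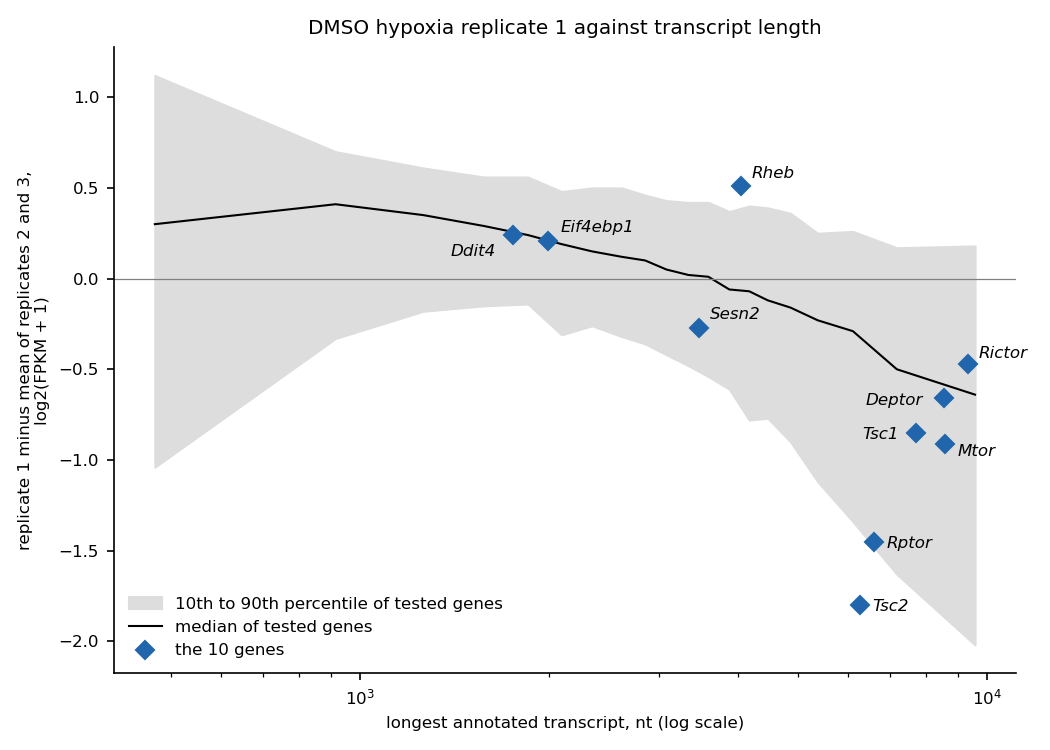
Deviation of DMSO hypoxia replicate 1 from the mean of DMSO hypoxia replicates 2 and 3, in log2(FPKM + 1), against the longest annotated transcript of each gene in nt (log axis). The line is the median and the band the 10th to 90th percentile of tested genes in 20 length bins; of the 10 labelled genes, Tsc2 (-1.80) lies below the band and Rheb (0.51) above it.

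The cell type label, type B spermatogonia, carries a number after GC other than 2 in 11 of the 12 libraries, whereas every title and cell line label names GC-2, so all were taken as GC-2. The label was set against markers. Of 10 spermatogonial genes listed, 6 were in the table and only Gfra1 and Uchl1 reached 1 FPKM in 3 libraries, with Kit at no more than 0.04 FPKM and Ddx4 at no more than 0.06 FPKM. Of 8 spermatocyte and spermatid genes listed, 3 were in the table and 0 reached it, with sums of 0.3 to 1.23 FPKM over all libraries. By contrast, 4 of 6 fibroblast and peritubular genes reached it (Col1a1, Col1a2, Pdgfra and Acta2). The other listed genes did not, with Dcn at no more than 0.78 FPKM and Myh11 at no more than 0.02 FPKM. Col1a1 and Col1a2 made up most of the list's sum, while Acta2 ranged from 24.4 to 423.2 FPKM and Pdgfra from 0.62 to 11.9 FPKM over the libraries. The fibroblast list summed to 1280 to 1340 FPKM in MLN4924 hypoxia, 1080 to 1090 FPKM in MLN4924 normoxia, 1170 to 1410 FPKM in DMSO hypoxia and 1210 to 1230 FPKM in DMSO normoxia. Of the Sertoli list 3 of 6 genes reached it (Sox9, Wt1 and Gata4), with sums of 9.83 to 13.6 FPKM in MLN4924 hypoxia, 6.46 to 9.75 FPKM in MLN4924 normoxia, 18 to 23 FPKM in DMSO hypoxia and 12.8 to 15.6 FPKM in DMSO normoxia. Of the Leydig list 1 of 6 did (Star), with sums of 3.29 to 6.63 FPKM, 1.61 to 3.83 FPKM, 2.84 to 6.08 FPKM and 11.3 to 12.1 FPKM in the same order of groups, and of 4 macrophage and leukocyte genes 1 did (Cd68), with sums of 3.39 to 3.86 FPKM in MLN4924 hypoxia and 1.33 to 2.11 FPKM elsewhere. The sums of the fibroblast, Sertoli, Leydig and macrophage lists thus differed between groups, and their part in the results was not tested. FPKM carries no read counts, so depth is unknown, and in bulk RNA fewer cells of a type cannot be told apart from less RNA per cell.

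Ddit4, Sesn2 and Eif4ebp1 were the members that passed the test in the most comparisons. Hypoxia raised Ddit4 more than any other member, by 1.92 on the log2 scale under MLN4924 and by 1.95 under DMSO. Sesn2 rose with hypoxia and with MLN4924, and was highest with both (21.4 ± 0.280 FPKM, SD, n = 3, against 7.79 ± 0.285 FPKM in DMSO normoxia). Eif4ebp1 rose with either and showed a smaller hypoxia effect under MLN4924. Rheb rose in MLN4924 hypoxia against both normoxia groups. Against DMSO hypoxia it did not pass with all 12 libraries and did so without DMSO hypoxia replicate 1. Deptor and Rptor were lower in DMSO hypoxia than in DMSO normoxia. Mtor, Tsc1, Tsc2 and Rictor passed in no comparison with all 12 libraries. The test throughout was limma on log2(FPKM + 1), two-sided, with Benjamini-Hochberg adjustment over all tested genes and a threshold of 0.05; "rose" and "fell" are used of genes past it, and each ± after a log2 fold change is the standard error from limma. The added 1 FPKM understates changes of low genes, such as Tsc1. The comparisons share groups (DMSO normoxia is the reference of 3 of them), so their values are set side by side as each comparison's own.

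**Figure D2:**
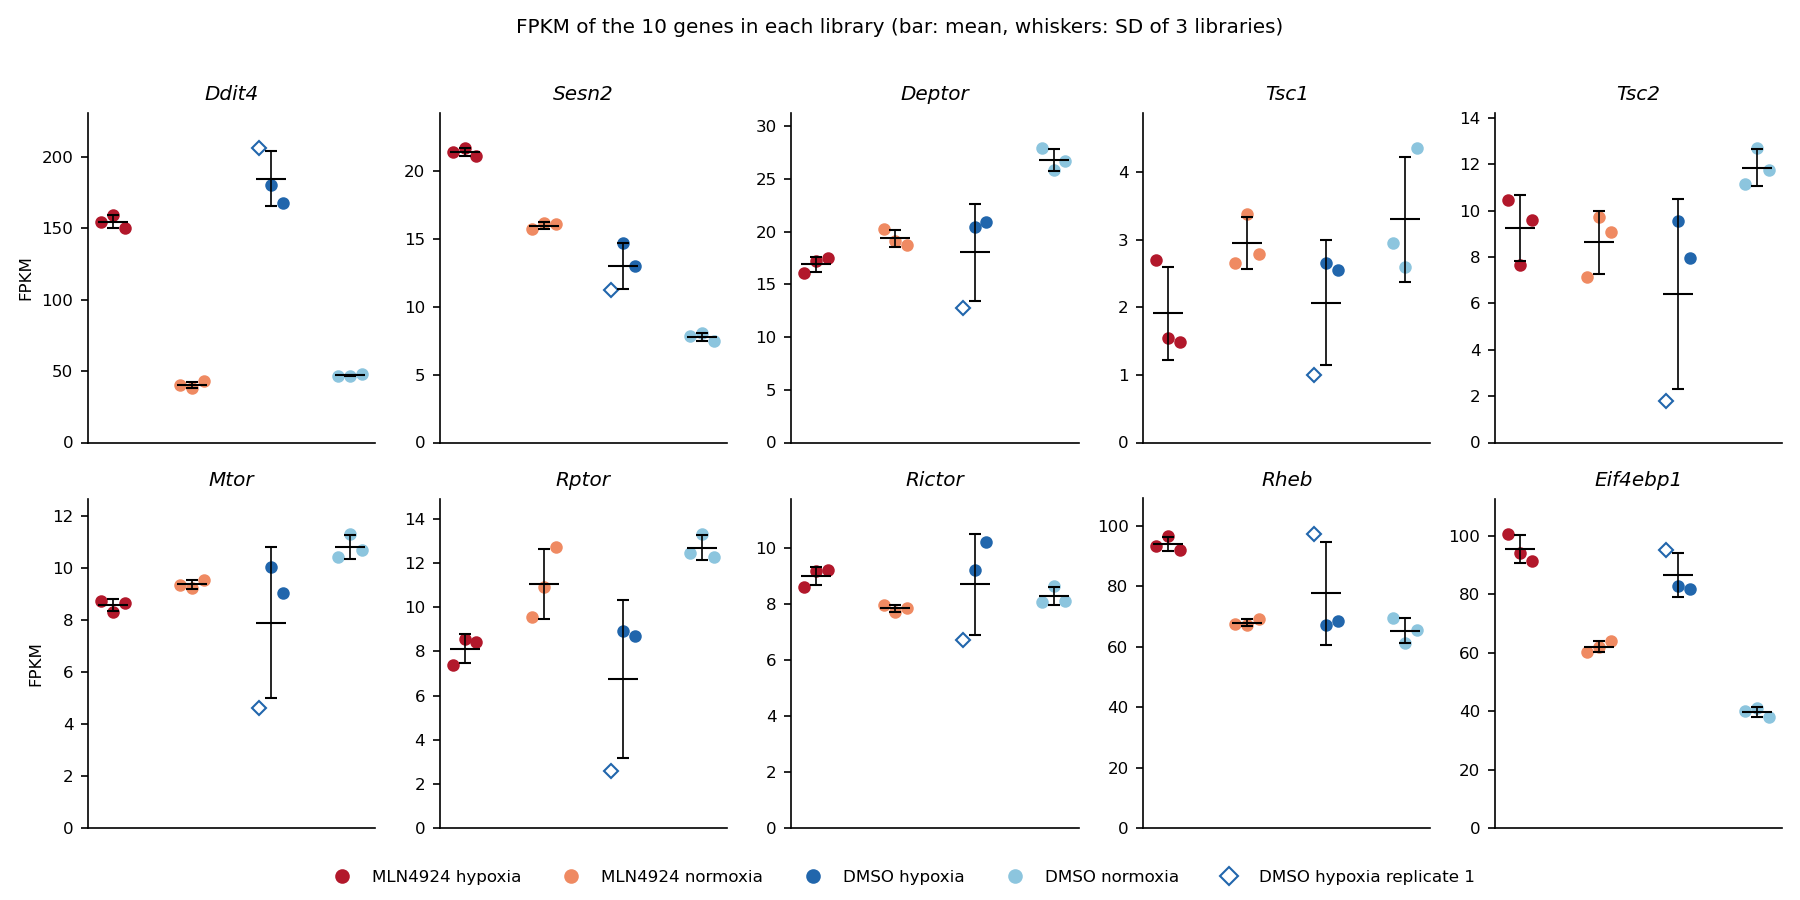
FPKM of each of the 10 genes in the 12 libraries, from left to right MLN4924 hypoxia, MLN4924 normoxia, DMSO hypoxia and DMSO normoxia, with the mean (bar) and SD (whiskers) of 3 libraries; the open diamond is DMSO hypoxia replicate 1. Ddit4 is high in both hypoxia groups, Sesn2 is highest in MLN4924 hypoxia, and the diamond lies lowest of all 12 libraries for Deptor, Tsc1, Tsc2, Mtor, Rptor and Rictor and highest for Rheb and Ddit4.

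Upstream sequences were read for the members that moved. The RefSeq promoter table (build GRCm38.p6) held 8 of the 10 genes, all but Deptor and Eif4ebp1. The 250 bases before the start were searched on both strands for ACGTG (a core of the hypoxia response element), TTGCATCA (a C/EBP-ATF element) and TGACNNNGC (an antioxidant response element). The upstream bases of Ddit4 (chr10:59951771-59952020, minus strand), Sesn2 (chr4:132510457-132510706, minus strand) and Rheb (chr5:24842362-24842611, minus strand) are shown 5′ to 3′ along the gene, because these genes changed and their windows differ in the motifs; capitals mark every match.
Ddit4: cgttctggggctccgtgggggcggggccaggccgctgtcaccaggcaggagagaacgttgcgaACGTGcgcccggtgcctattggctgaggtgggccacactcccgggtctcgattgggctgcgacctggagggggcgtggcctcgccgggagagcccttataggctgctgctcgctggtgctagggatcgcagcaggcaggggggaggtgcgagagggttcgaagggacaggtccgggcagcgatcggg
Sesn2: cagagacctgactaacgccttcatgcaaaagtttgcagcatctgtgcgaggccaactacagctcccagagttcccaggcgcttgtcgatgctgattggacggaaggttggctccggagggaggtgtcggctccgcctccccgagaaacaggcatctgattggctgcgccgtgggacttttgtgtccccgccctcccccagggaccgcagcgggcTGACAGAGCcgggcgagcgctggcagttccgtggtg
Rheb: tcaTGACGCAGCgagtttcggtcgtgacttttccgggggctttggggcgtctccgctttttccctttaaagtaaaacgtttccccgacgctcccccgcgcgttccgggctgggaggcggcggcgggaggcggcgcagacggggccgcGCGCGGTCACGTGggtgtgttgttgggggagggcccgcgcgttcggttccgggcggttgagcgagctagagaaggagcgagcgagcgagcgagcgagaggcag
Ddit4 had a single ACGTG, 187 to 183 bases before the start, and no match to the other motifs. Sesn2 had a single TGACNNNGC match, TGACAGAGC, 36 to 28 bases before the start, and neither of the other motifs. Rheb had ACGTG on both strands as an overlapping CACGTG, 96 to 91 bases before the start, and TGACNNNGC at 247 to 239 bases and, on the other strand, at 103 to 95 bases, where it overlaps the CACGTG. Rptor, which fell, also held ACGTG, 34 to 30 bases before the start, and Mtor, Rictor, Tsc1 and Tsc2 held no match to the motifs as searched. The variant core GCGTG was not among them and is not capitalised. It occurs in the windows of Ddit4 and Rptor and, on the other strand, in those of Rictor, Tsc1 and Tsc2, so the search does not show that a window lacks such a core. Of 32851 promoter windows of this length in the table, 16.6% held ACGTG, 10.2% held TGACNNNGC and 0.791% held TTGCATCA. A match describes letters in the window and not binding.

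Ddit4 encodes REDD1, a stress-induced protein that restrains mTORC1 through the TSC complex and is known as a target of hypoxia-inducible factor. It read 155, 159.6 and 150.4 FPKM in MLN4924 hypoxia and 40.0, 38.1 and 42.9 FPKM in MLN4924 normoxia. In DMSO hypoxia it read 206, 180.4 and 168 FPKM, and in DMSO normoxia 46.8, 46.6 and 47.7 FPKM. No group overlapped another, and the hypoxia groups lay far above the normoxia groups. Ddit4 rose with hypoxia under MLN4924 by 1.92 ± 0.07 (adjusted p = 8.25e-08) and under DMSO by 1.95 ± 0.07 (adjusted p = 5.7e-08), or 1.87 ± 0.05 (1.06e-08) under DMSO without DMSO hypoxia replicate 1. These hypoxia effects differed by -0.03 ± 0.10 (interaction, adjusted p = 0.908), or 0.05 ± 0.07 (0.769) without that library. Within hypoxia, MLN4924 lowered Ddit4 to 155 ± 4.59 FPKM, against 185 ± 19.5 FPKM in DMSO (log2 fold change -0.25 ± 0.07, adjusted p = 0.0306). Leaving out DMSO hypoxia replicate 1, its highest library, gave -0.17 ± 0.05 (adjusted p = 0.0326), and leaving out any of the 3 MLN4924 hypoxia libraries ended the call (adjusted p of 0.0537 to 0.1). In normoxia Ddit4 averaged 40.3 ± 2.39 FPKM with MLN4924 and 47.0 ± 0.595 FPKM with DMSO, a difference of -0.22 ± 0.07 that did not pass (adjusted p = 0.0602) and did so without DMSO hypoxia replicate 1, where the shared spread was smaller (adjusted p = 0.00524).

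Sesn2 encodes sestrin 2, a stress-induced leucine sensor that restrains mTORC1 through GATOR2 and is known as a target of p53, ATF4 and NRF2. It read 21.4, 21.7 and 21.1 FPKM in MLN4924 hypoxia and 15.7, 16.2 and 16.1 FPKM in MLN4924 normoxia. In DMSO hypoxia it read 11.3, 14.7 and 13.0 FPKM, and in DMSO normoxia 7.85, 8.04 and 7.48 FPKM. The groups stood in that order with no overlap, and each neighbour differed from the next. MLN4924 hypoxia exceeded MLN4924 normoxia by 0.40 ± 0.08 (adjusted p = 0.00519), and MLN4924 normoxia exceeded DMSO hypoxia by 0.29 ± 0.08 (adjusted p = 0.0175; 0.20 ± 0.06 and 0.0204 without DMSO hypoxia replicate 1, and 0.0515 without MLN4924 normoxia replicate 2). DMSO hypoxia exceeded DMSO normoxia by 0.66 ± 0.08 (adjusted p = 0.000203), or 0.75 ± 0.06 (1.01e-05) without that library. MLN4924 raised Sesn2 by 0.95 ± 0.08 in normoxia (adjusted p = 3.26e-05) and by 0.69 ± 0.08 in hypoxia (adjusted p = 0.000255; 0.60 ± 0.06 and 7.01e-05 without that library). The combination exceeded DMSO normoxia by 1.35 ± 0.08 (adjusted p = 1.17e-06). The hypoxia effect under MLN4924 minus that under DMSO was -0.27 ± 0.12 and did not pass with all libraries (adjusted p = 0.329), while without DMSO hypoxia replicate 1 it was -0.36 ± 0.08 and did (adjusted p = 0.0339).

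Deptor encodes an inhibitory subunit that binds mTOR in both of its complexes. It read 16.1, 17.2 and 17.5 FPKM in MLN4924 hypoxia and 20.3, 19.1 and 18.7 FPKM in MLN4924 normoxia. In DMSO hypoxia it read 12.7, 20.5 and 20.9 FPKM, and in DMSO normoxia 27.9, 25.8 and 26.7 FPKM. Every DMSO normoxia library lay above the other 9, and the lowest of all was DMSO hypoxia replicate 1. Deptor fell with hypoxia in DMSO by 0.58 ± 0.15 on the log2 scale (adjusted p = 0.0134), and by 0.36 ± 0.06 without that library (adjusted p = 0.000779). MLN4924 hypoxia against DMSO normoxia gave -0.63 ± 0.15 (adjusted p = 0.00713). With MLN4924 in normoxia the log2 fold change was -0.45 ± 0.15 and did not pass (adjusted p = 0.0578). With the smaller spread left by dropping DMSO hypoxia replicate 1 it passed (-0.45 ± 0.05, adjusted p = 0.000105). MLN4924 in hypoxia gave -0.06 ± 0.15 (adjusted p = 0.815) with that library and -0.28 ± 0.06 (0.00434) without it. MLN4924 hypoxia against MLN4924 normoxia gave -0.18 ± 0.15 (adjusted p = 0.404) with all libraries and -0.18 ± 0.05 (0.0139) without it. The order of MLN4924 normoxia and DMSO hypoxia turned with that library, their difference being 0.13 ± 0.15 (adjusted p = 0.518) with all libraries and -0.09 ± 0.06 (0.206) without replicate 1. Deptor shares 303 exon bases with Gm9920 on the opposite strand (0.34 to 1.86 FPKM), and whether reads were counted by strand is not given in the sources used here.

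Tsc1 and Tsc2 encode hamartin and tuberin, whose complex turns RHEB off. Tsc1 was the lowest member, at 2.70, 1.54 and 1.49 FPKM in MLN4924 hypoxia, 2.66, 3.38 and 2.79 FPKM in MLN4924 normoxia, 1.00, 2.65 and 2.55 FPKM in DMSO hypoxia and 2.95, 2.60 and 4.35 FPKM in DMSO normoxia. Every pair of groups overlapped except MLN4924 normoxia and DMSO hypoxia, which were narrowly apart, and no comparison passed with 12 libraries (log2 fold change -0.57 ± 0.25, adjusted p = 0.109, for MLN4924 hypoxia against DMSO normoxia; 0.0297 without DMSO hypoxia replicate 1). Tsc2 read 10.4, 7.67 and 9.61 FPKM in MLN4924 hypoxia, 7.12, 9.72 and 9.07 FPKM in MLN4924 normoxia, 1.78, 9.54 and 7.95 FPKM in DMSO hypoxia and 11.1, 12.7 and 11.8 FPKM in DMSO normoxia. All DMSO normoxia libraries lay above the rest, and 1.78 FPKM is DMSO hypoxia replicate 1. That library moved the Tsc2 estimate most: hypoxia in DMSO gave -1.0 ± 0.40 (adjusted p = 0.0753) with it and -0.40 ± 0.15 (0.0542) without it. MLN4924 in normoxia gave Tsc2 -0.42 ± 0.40 (adjusted p = 0.522), and -0.42 ± 0.13 (0.0319) without that library. Tsc2 shares 693 exon bases with Pkd1, which lies on the opposite strand and ranged from 0.09 to 9.65 FPKM.

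Mtor encodes the kinase, Rptor the scaffold that defines mTORC1, and Rictor the subunit that defines the sister complex mTORC2. Mtor read 8.72, 8.30 and 8.66 FPKM in MLN4924 hypoxia, 9.34, 9.22 and 9.55 FPKM in MLN4924 normoxia, 4.60, 10.1 and 9.05 FPKM in DMSO hypoxia and 10.4, 11.3 and 10.7 FPKM in DMSO normoxia. The DMSO normoxia libraries were the highest, and no comparison passed (hypoxia in DMSO -0.47 ± 0.20, adjusted p = 0.0977, or -0.16 ± 0.06, 0.0705, without DMSO hypoxia replicate 1). Dropping that library brought 2 Mtor comparisons past the threshold, MLN4924 hypoxia against DMSO normoxia (-0.30 ± 0.06, adjusted p = 0.00162) and MLN4924 in normoxia (-0.19 ± 0.06, 0.031). Rptor read 7.37, 8.58 and 8.41 FPKM in MLN4924 hypoxia, 9.54, 10.9 and 12.7 FPKM in MLN4924 normoxia, 2.60, 8.94 and 8.68 FPKM in DMSO hypoxia and 12.5, 13.3 and 12.3 FPKM in DMSO normoxia. Both hypoxia groups lay below both normoxia groups for Rptor. It fell with hypoxia in DMSO by 0.96 ± 0.32 (adjusted p = 0.0391), and by 0.48 ± 0.11 without replicate 1 (adjusted p = 0.00577). The call with 12 libraries was lost when any single library outside the DMSO hypoxia group was dropped (adjusted p of 0.051 to 0.0996). Under MLN4924 the hypoxia effect on Rptor was -0.40 ± 0.32 (adjusted p = 0.397), and -0.40 ± 0.10 (0.00773) without DMSO hypoxia replicate 1. MLN4924 hypoxia against DMSO normoxia gave Rptor -0.59 ± 0.32 (adjusted p = 0.177), and -0.59 ± 0.10 (0.000639) without that library. For MLN4924 normoxia against DMSO hypoxia it was 0.77 ± 0.32 (adjusted p = 0.073), and 0.29 ± 0.11 (0.0472) without it. Rictor varied least of the 10 genes, with a highest library 1.52 times the lowest (Tsc2, at 7.13 times, had the widest range, set by DMSO hypoxia replicate 1), at 8.63, 9.18 and 9.22 FPKM in MLN4924 hypoxia, 7.99, 7.74 and 7.85 FPKM in MLN4924 normoxia, 6.72, 9.21 and 10.2 FPKM in DMSO hypoxia and 8.09, 8.67 and 8.12 FPKM in DMSO normoxia. Hypoxia gave Rictor 0.18 ± 0.12 under MLN4924 (adjusted p = 0.313; 0.0377 without replicate 1) and 0.05 ± 0.12 under DMSO (0.787; 0.20 ± 0.07 and 0.0349 without it), so without that library Rictor rose while Rptor fell. MLN4924 normoxia against DMSO hypoxia gave Rictor -0.12 ± 0.12 (adjusted p = 0.463), and -0.27 ± 0.07 (0.00716) without replicate 1.

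Rheb encodes the small GTPase that activates mTORC1. It read 93.4, 96.7 and 92.0 FPKM in MLN4924 hypoxia, 67.5, 67.2 and 69.1 FPKM in MLN4924 normoxia, 97.3, 67.2 and 68.6 FPKM in DMSO hypoxia and 69.4, 61.2 and 65.4 FPKM in DMSO normoxia. The MLN4924 hypoxia libraries were above every other library except DMSO hypoxia replicate 1, which read like them. Rheb rose with hypoxia under MLN4924 by 0.46 ± 0.12 (adjusted p = 0.0148; 0.0509 without MLN4924 hypoxia replicate 2), and MLN4924 hypoxia exceeded DMSO normoxia by 0.52 ± 0.12 (adjusted p = 0.00608). Hypoxia in DMSO gave 0.23 ± 0.12 (adjusted p = 0.164), or 0.06 ± 0.05 (0.409) without replicate 1, and MLN4924 in normoxia gave 0.06 ± 0.12 (0.802). MLN4924 in hypoxia gave 0.29 ± 0.12 (adjusted p = 0.0964) with all libraries and 0.46 ± 0.05 (0.000102) without replicate 1. The difference between the hypoxia effects turned on the same library: the interaction was 0.24 ± 0.17 (adjusted p = 0.558) with it and 0.41 ± 0.07 (0.00716) without it.

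Eif4ebp1 encodes 4E-BP1, the translation repressor that mTORC1 inactivates by phosphorylation, and its gene is known as a target of ATF4. It read 101, 94.4 and 91.6 FPKM in MLN4924 hypoxia and 60.2, 61.9 and 64.1 FPKM in MLN4924 normoxia. In DMSO hypoxia it read 95.4, 83.0 and 81.9 FPKM, and in DMSO normoxia 40.1, 41.2 and 38.0 FPKM. The hypoxia groups overlapped each other through DMSO hypoxia replicate 1, and MLN4924 normoxia lay between them and DMSO normoxia. Eif4ebp1 rose with hypoxia in DMSO by 1.10 ± 0.07 (adjusted p = 1.65e-06; 1.03 ± 0.05 and 4.7e-07 without replicate 1) and under MLN4924 by 0.61 ± 0.07 (adjusted p = 0.000115). MLN4924 raised it by 0.63 ± 0.07 in normoxia (adjusted p = 0.000129). In hypoxia MLN4924 gave 0.14 ± 0.07 (adjusted p = 0.156), and 0.21 ± 0.05 (0.0106) without replicate 1. MLN4924 normoxia was below DMSO hypoxia by 0.47 ± 0.07 on the log2 scale (-0.47, adjusted p = 0.000277; -0.40 ± 0.05 and 0.000117 without replicate 1). Eif4ebp1 was the only member past the threshold for the interaction with all libraries, at -0.49 ± 0.10 (adjusted p = 0.032), and -0.42 ± 0.07 (0.00699) without replicate 1. Leaving out any of 8 other libraries (MLN4924 hypoxia replicate 2 or 3, or any of either normoxia group) ended that call, with adjusted p of 0.0655 to 0.0936.

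**Figure D3:**
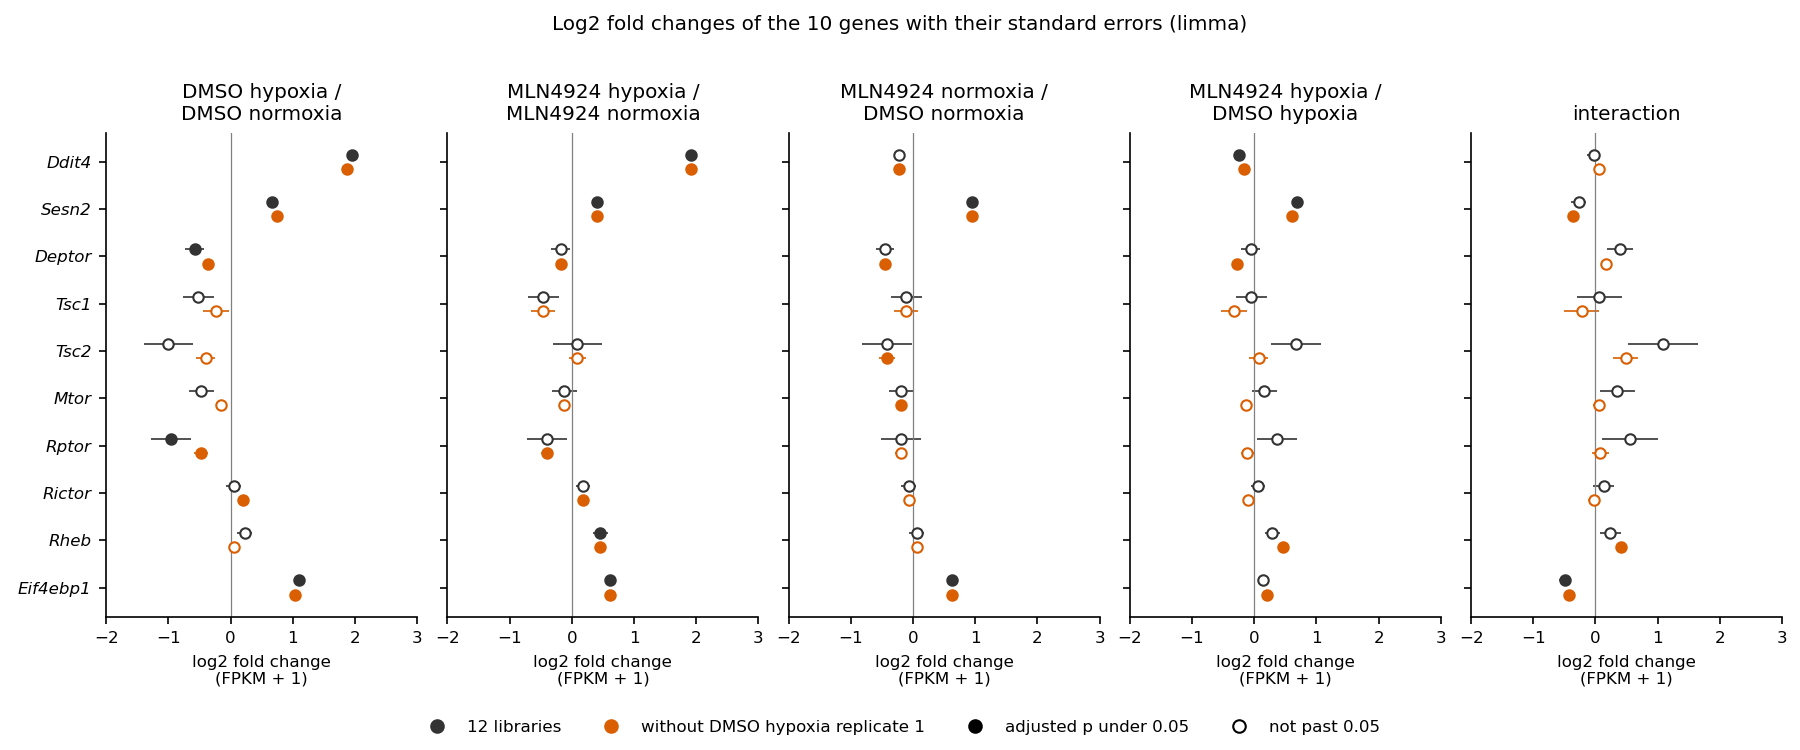
Log2 fold changes (FPKM + 1) of the 10 genes with their standard errors, in 4 comparisons and for the interaction (hypoxia effect under MLN4924 minus that under DMSO), with 12 libraries (dark) and without DMSO hypoxia replicate 1 (orange); filled points have an adjusted p under 0.05. Ddit4 lies at 1.95 and 1.92 in the hypoxia panels, and the dark and orange points part most for Tsc2 and Rptor.

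Counted over the list, hypoxia in DMSO raised 3 members (Ddit4, Sesn2, Eif4ebp1) and lowered 2 (Deptor, Rptor), where 33.2% of all tested genes passed (13.8% higher, 19.4% lower). Hypoxia under MLN4924 raised 4 (Ddit4, Sesn2, Rheb, Eif4ebp1) and lowered none, against 28.2% of tested genes (11.7% higher, 16.5% lower). MLN4924 in normoxia raised Sesn2 and Eif4ebp1, against 20% (9.33% higher, 10.7% lower). In hypoxia it raised Sesn2 and lowered Ddit4, against 25.5% (12.2% higher, 13.3% lower). At an unadjusted p under 0.05 by limma, Ddit4 and Deptor were also lower with MLN4924 in normoxia, where 40% of members and 32.3% of tested genes were under it. No member was lower at that threshold with hypoxia under MLN4924, where 40% of members and 38.7% of tested genes were under it. MLN4924 hypoxia against DMSO normoxia raised 4 (Ddit4, Sesn2, Rheb, Eif4ebp1) and lowered 1 (Deptor), against 35.8% (14.6% higher, 21.2% lower). MLN4924 normoxia against DMSO hypoxia gave 1 higher (Sesn2) and 2 lower (Ddit4, Eif4ebp1), against 42.5% (22.8% higher, 19.7% lower). With all 12 libraries the members' share was thus not above that of all genes for MLN4924 in normoxia, for MLN4924 in hypoxia or for MLN4924 normoxia against DMSO hypoxia. Without DMSO hypoxia replicate 1 the same comparisons gave 6, 5 and 5 members, beside 34.4%, 32.6% and 48.2% of tested genes. In so short a list, 1 gene outweighs the smaller of these gaps, such as 5 members beside 48.2%. The members were also chosen with earlier results of these data known. These shares are therefore not read as a result about the members. The interaction gave 1 (Eif4ebp1, negative), against 1.88% (0.958% positive, 0.926% negative). Dropping DMSO hypoxia replicate 1 left 12233 tested genes, and the members past the threshold then numbered 6 for hypoxia in DMSO (38.9% of tested genes), 7 for hypoxia under MLN4924 (42.8%), 6 for MLN4924 in normoxia (34.4%) and 5 for MLN4924 in hypoxia (32.6%). The same fit gave 8 for MLN4924 hypoxia against DMSO normoxia (49.6%), 5 for MLN4924 normoxia against DMSO hypoxia (48.2%) and 3 for the interaction (5.54%). The median member log2 fold change was -0.21 for hypoxia in DMSO, beside -0.08 over all tested genes, and -0.05 beside -0.07 without DMSO hypoxia replicate 1. It was 0.13 beside -0.05 for hypoxia under MLN4924.

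By Pearson correlation of log2(FPKM + 1) over the 12 libraries, the genes with the pattern most like Ddit4 were Prelid2 (0.997), Lonp1 (0.995) and Ero1a (0.993). Ero1a, an oxidase of the endoplasmic reticulum, averaged 178 FPKM in MLN4924 hypoxia, 17.0 FPKM in MLN4924 normoxia, 220 FPKM in DMSO hypoxia and 16.9 FPKM in DMSO normoxia. Prelid2, the closest, averaged 54.8, 14.1, 69.2 and 15.3 FPKM in the same order of groups. Sesn2 was most like Tnpo2 (0.990), Shmt2 (0.988) and Hnrnpf (0.985). Tnpo2 spanned a narrower range than Sesn2, averaging 82, 73.3, 68.5 and 58.8 FPKM in that order of groups. Shmt2, a mitochondrial enzyme of serine and folate metabolism, averaged 189, 153, 129 and 80.8 FPKM in the same order of groups. Eif4ebp1 was most like Asns (0.992), Hspa9 (0.991) and Pck2 (0.988), and Asns, asparagine synthetase, averaged 243, 131, 204 and 58.3 FPKM. Deptor was most like Bace1 (0.991), Strn (0.978) and Slc45a4 (0.974), Rptor like Pdxdc1 (0.980), Cltc (0.976) and 2610507B11Rik (0.976), and Rheb like Arpc5l (0.975), Ube2w (0.964) and Efemp2 (0.956). The 12 points are 4 groups of 3 libraries and include the library that stood apart, so these values describe shared group patterns.

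Around the members, 67 other genes of the pathway were listed and 63 tested; Prr5l, Rragd, Eif4ebp3 and Grb10 were below the filter. Hypoxia in DMSO raised 7 (11.1%, beside 13.8% of all tested genes) and lowered 13 (20.6%, beside 19.4%). Without DMSO hypoxia replicate 1 it raised 7 and lowered 17 (11.1% and 27%, beside 14.8% and 24.1% of tested genes in that fit). Ulk1, the autophagy kinase that mTORC1 restrains, rose by 0.79 ± 0.11 (31.5 ± 3.66 FPKM, against 17.8 ± 0.577 FPKM in DMSO normoxia; adjusted p = 0.000385). Flcn, encoding folliculin, rose by 0.52 ± 0.11 (adjusted p = 0.00418) and Castor1, an arginine sensor, by 0.51 ± 0.13 (0.0144), while Rhebl1, a homologue of Rheb, rose by 0.53 ± 0.16 (0.0305) and did not pass without replicate 1 (0.0643). Of those that fell, Sesn3, a sestrin paralogue, gave -1.21 ± 0.30 (adjusted p = 0.0105), opposite in sign to Sesn2. Eif4ebp2, the 4E-BP2 gene, gave -0.90 ± 0.27 (0.0262), opposite to Eif4ebp1, and Ddit4l, the Ddit4 paralogue, gave -0.74 ± 0.15 (0.00404) at a low level (0.477 ± 0.200 FPKM, against 1.46 ± 0.225 FPKM). Prkaa1, a catalytic subunit of AMPK, gave -0.87 ± 0.19 (0.00567), and Irs1, an insulin receptor substrate, -0.67 ± 0.21 (0.0302; -0.38 without replicate 1). Prr5, a subunit of mTORC2, read 1.85 FPKM and 2 libraries listed at 0 in DMSO hypoxia, against 2.90, 1.92 and 1.45 FPKM in DMSO normoxia (adjusted p = 0.0418). Each of these calls except that of Rhebl1 also passed without replicate 1.

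Hypoxia under MLN4924 raised 7 listed genes (11.1%, beside 11.7%) and lowered 10 (15.9%, beside 16.5%). Without DMSO hypoxia replicate 1 it raised 10 and lowered 16 (15.9% and 25.4%, beside 17.9% and 24.9%). Ulk1 rose by 0.84 ± 0.11 (adjusted p = 0.000319), Castor1 by 0.74 ± 0.13 (0.00215), Flcn by 0.67 ± 0.11 (0.00115) and Fnip2, a folliculin partner, by 0.65 ± 0.20 (0.0368). Lpin1 read 3.49, 3.66 and 3.44 FPKM in MLN4924 hypoxia, against 1.75, a listed 0 and 0.68 FPKM in MLN4924 normoxia (1.44 ± 0.44, adjusted p = 0.0321). A pair of listed mTORC1 subunits fell here: Mlst8, shared by both mTOR complexes, by 0.88 ± 0.16 (-0.88, adjusted p = 0.0021), and Akt1s1, the inhibitory subunit PRAS40, by 0.77 ± 0.12 (-0.77, adjusted p = 0.00128). Akt1s1 also fell with hypoxia in DMSO (-0.62 ± 0.12, adjusted p = 0.0037; -0.73 ± 0.11 and 0.000779 without replicate 1), where Mlst8 gave -0.19 ± 0.16 (0.366; -0.06 ± 0.15 and 0.769 without it). Rps6kb2, an S6 kinase, gave -0.73 ± 0.23 (0.0402), Irs1 -0.62 ± 0.21 (0.0475) and Lamtor4, a subunit of the lysosomal anchor Ragulator, -0.59 ± 0.16 (0.0198).

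MLN4924 in normoxia raised 3 listed genes (4.76%, beside 9.33%) and lowered 8 (12.7%, beside 10.7%). Without DMSO hypoxia replicate 1 it raised 7 and lowered 14 (11.1% and 22.2%, beside 16.2% and 18.3%). Irs1 rose to 4.39 ± 0.467 FPKM, against 2.27 ± 0.0954 FPKM in DMSO normoxia (0.72 ± 0.21, adjusted p = 0.0331). Tfeb, the lysosomal transcription factor that mTORC1 keeps out of the nucleus, fell to 2.88 ± 0.753 FPKM, against 6.20 ± 0.831 FPKM (-0.90 ± 0.16, adjusted p = 0.00265). Fnip2 (-0.88 ± 0.20, 0.0118), Fnip1 (-0.56 ± 0.08, 0.000678), Lamtor2 (-0.54 ± 0.12, 0.0119) and Castor2 (-0.52 ± 0.10, 0.00352) also fell. In hypoxia MLN4924 raised 4 (6.35%, beside 12.2%) and lowered 10 (15.9%, beside 13.3%). Without DMSO hypoxia replicate 1 it raised 4 and lowered 14 (6.35% and 22.2%, beside 16.9% and 15.7%). Irs1 rose in hypoxia by 0.77 ± 0.21 (adjusted p = 0.0206), or 0.48 without replicate 1. Prr5 was among those that rose (adjusted p = 0.0112), at 4.34, 2.86 and 2.50 FPKM in MLN4924 hypoxia, against the DMSO hypoxia values above. Fnip1 (-0.58 ± 0.08, 0.000507), Lamtor2 (-0.55 ± 0.12, 0.00895), Lamtor4 (-0.60 ± 0.16, 0.0209; -0.39 without replicate 1) and Tfeb (-0.50 ± 0.16, 0.0416) fell in hypoxia as well, and all 4 passed without replicate 1. No listed gene passed for the interaction (0 of 63 by limma, against 1.88% of tested genes), and 1 did without replicate 1 (1.59%, beside 5.54%). At an unadjusted p under 0.05 there were 8 (12.7%), beside 14.6% of tested genes.

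**Figure D4:**
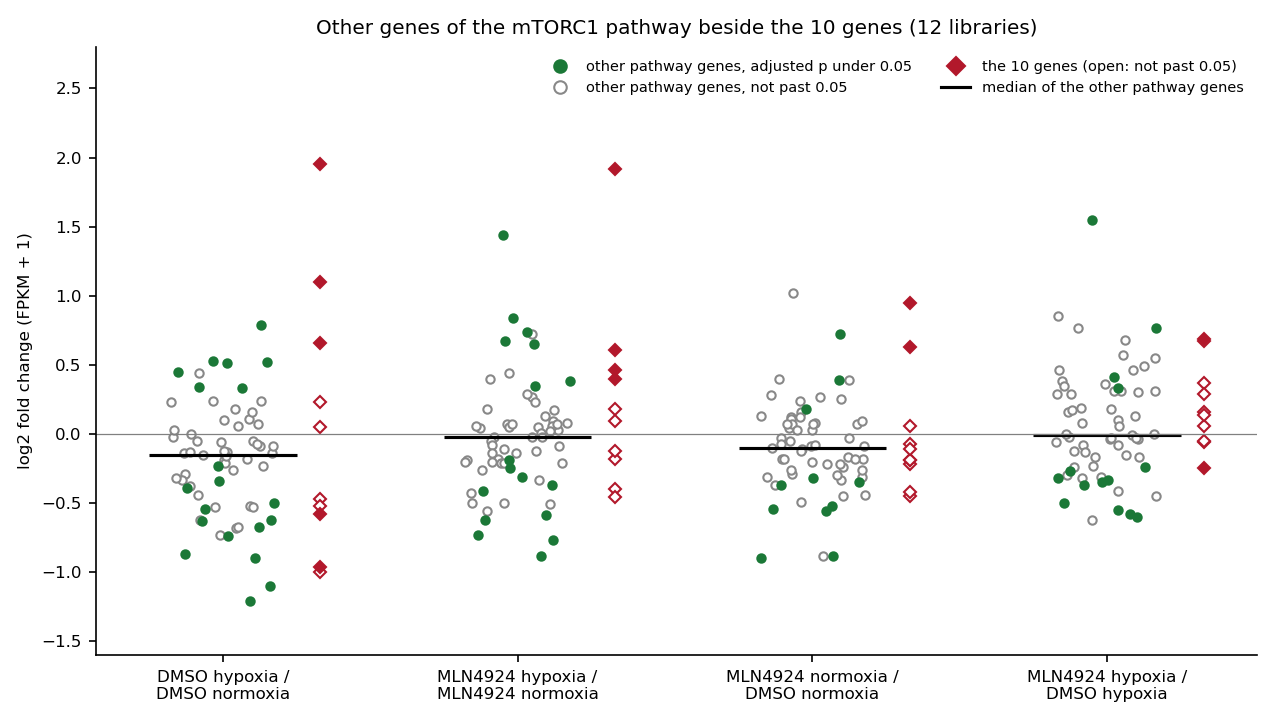
Log2 fold changes (FPKM + 1) in 4 comparisons with 12 libraries, for 63 other pathway genes (circles, filled where the adjusted p is under 0.05, jittered sideways) and the 10 genes (diamonds, open where not past it); black lines are the medians of the other pathway genes. Those medians are -0.15, -0.02, -0.10 and -0.01 from left to right, while Ddit4 stands highest in both hypoxia comparisons at 1.95 and 1.92.

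RNAs of 12 ligase parts linked to these proteins were also counted: Btrc, Fbxw11, Fbxw5, Fbxw7, Klhl22, Cul1, Cul3, Cul4a, Cul4b, Ddb1, Rbx1 and Skp1. None passed for MLN4924 in normoxia (0 of 12 by limma, where 20% of tested genes did). Fbxw5, Cul3 and Rbx1 had an unadjusted p under 0.05 there (25%, beside 32.3% of tested genes). Without DMSO hypoxia replicate 1, 1 rose and 3 fell (8.33% and 25%, beside 16.2% and 18.3% of tested genes in that fit). In hypoxia MLN4924 lowered 3, Fbxw5, Cul1 and Rbx1 (25%, beside 13.3% of tested genes that fell), and raised none. Without that library 5 fell, with Klhl22 and Cul4a in addition (41.7%, beside 15.7%). Hypoxia under MLN4924 lowered 4, Klhl22, Cul1, Cul3 and Cul4b (33.3%, beside 16.5%), and raised none. Without that library 7 fell, with Ddb1, Rbx1 and Skp1 in addition (58.3%, beside 24.9%). Cul4b averaged 11.7 ± 1.37 FPKM in MLN4924 hypoxia, against 22.1 ± 3.53 FPKM in MLN4924 normoxia (-0.85 ± 0.18, adjusted p = 0.00585). Hypoxia in DMSO lowered 2, Cul1 and Ddb1 (16.7%, beside 19.4%), and raised none. Without replicate 1, 4 fell, with Rbx1 and Skp1 in addition (33.3%, beside 24.1%). Btrc, whose product recognises DEPTOR, averaged 10.9 ± 0.617 FPKM in MLN4924 hypoxia, 11.0 ± 0.835 FPKM in MLN4924 normoxia, 11.8 ± 0.501 FPKM in DMSO hypoxia and 11.2 ± 1.09 FPKM in DMSO normoxia.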

How the data were processed

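RNA was sequenced from GC-2 cells in 12 libraries, 3 in each of 4 groups; the series text calls them biological replicates. The values are FPKM per gene symbol, computed and deposited by the authors in a single table, and all 12 columns were used (0 left out). Per the submitters' processing notes, fastp, STAR, RSEM 1.3.3 and genome build mm39 were used; the annotation, strandedness, filters and role of each tool are not given in the sources used here. FPKM carries no counts, so depth is unknown and no count model or counting interval was applied; the spread between libraries stands in for precision.

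The test took the 12311 genes that reached 1 FPKM in 3 or more libraries. The log2 of FPKM plus a pseudocount of 1 was modelled by group mean in limma 3.58.1 (R 4.3.3); all groups shared the spread, and the prior followed a trend in intensity. There were 7 contrasts: the 6 pairs of groups and the interaction. P-values are two-sided and adjusted by Benjamini-Hochberg over the tested genes of a contrast. An exact permutation of 3 libraries against 3 cannot go below 0.1. The script was tested on simulated data. Labels number the replicates, but same-numbered libraries did not deviate together (18 pairs, r from -0.07 to 0.099), so no block was used.

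The members and gene lists were chosen with earlier results of these data known. The text names the 10 members, the listed pathway and ligase genes past the threshold with an absolute log2 fold change of at least 0.5 (at most 6 per direction and contrast) and the 3 genes most like each member that passed. Listed genes were named in this way for hypoxia in DMSO, hypoxia under MLN4924, MLN4924 in normoxia and MLN4924 in hypoxia. Those of MLN4924 hypoxia against DMSO normoxia and of MLN4924 normoxia against DMSO hypoxia are not described. Btrc, Prr5l, Rragd, Eif4ebp3, Grb10 and the other listed genes named outside this rule were chosen after their values were seen. Transcript lengths come from GENCODE M21, of the build before the authors' (97.5% of tested genes had one), and promoter sequences from RefSeq on GRCm38.p6; no other positions are given. Alternatives tried were a pseudocount of 0.1, no filter, a filter of 5 FPKM, median-of-ratios scaling, array weights, the replicate block, centring within 20 length bins, the compared groups alone, and leaving out each library.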

Additional observations from a re-analysis of the deposited data

Results flagged for a closer look

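Eif4ebp1 was singled out because its response to hypoxia differed between the treatments by a test of the difference itself. The hypoxia effect under MLN4924 minus that under DMSO was -0.49 ± 0.10 on the log2 scale (limma interaction, adjusted p = 0.032), with effects of 0.61 ± 0.07 under MLN4924 and 1.10 ± 0.07 under DMSO. The 3 MLN4924 hypoxia libraries lay at 91.6 to 101 FPKM and the 3 DMSO hypoxia libraries at 81.9 to 95.4 FPKM. The call ended when any of 8 single libraries was left out (adjusted p of 0.0655 to 0.0936) and when the replicate number was a block (0.0617).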

How the results depend on the processing

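Over 70 member results (10 genes in 7 contrasts), the calls of Ddit4, Sesn2 and Eif4ebp1 for hypoxia in DMSO, hypoxia under MLN4924 and MLN4924 hypoxia against DMSO normoxia passed under all 20 alternatives, as did those of Sesn2 for MLN4924 in both oxygen states and of Eif4ebp1 for MLN4924 in normoxia. So did Deptor and Rheb for MLN4924 hypoxia against DMSO normoxia, and Ddit4 and Eif4ebp1 for MLN4924 normoxia against DMSO hypoxia. Members past the threshold numbered 5 for hypoxia in DMSO, 2 for MLN4924 in normoxia, 2 for MLN4924 in hypoxia, 4 for hypoxia under MLN4924, 5 for MLN4924 hypoxia against DMSO normoxia, 3 for MLN4924 normoxia against DMSO hypoxia and 1 for the interaction. In that order of contrasts, leaving out 1 library gave 4 to 7, 2 to 6, 1 to 5, 3 to 7, 5 to 8, 2 to 5 and 0 to 3. Array weights, which set the weight of DMSO hypoxia replicate 1 to 0.0736, gave 4 for MLN4924 in normoxia, 5 for MLN4924 in hypoxia, 7 for hypoxia under MLN4924, 8 for MLN4924 hypoxia against DMSO normoxia and 3 for the interaction. Centring within length bins gave 4 for MLN4924 in normoxia and 4 for MLN4924 in hypoxia. The compared groups fitted alone gave 3 for hypoxia in DMSO (Deptor at an adjusted p of 0.0867 and Rptor at 0.145), 6 for MLN4924 in normoxia, 1 for MLN4924 in hypoxia (Ddit4 at 0.147) and 8 for MLN4924 hypoxia against DMSO normoxia. Sesn2 for MLN4924 normoxia against DMSO hypoxia was at 0.0538 with length bins and 0.0969 with the groups alone. With no filter on low values MLN4924 in hypoxia gave 1 (Ddit4 at 0.0512), and median-of-ratios scaling put Rptor for hypoxia in DMSO at 0.0524. With the replicate block MLN4924 in hypoxia gave 1 (Ddit4 at 0.0519) and the interaction 0 (Eif4ebp1 at 0.0617), and it ended no other member call. By mean correlation with libraries of the other groups, 4 of 12 libraries were closest to their own number out of 3 numbers, which is no sign of pairing.

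Signs turned by more than the standard error only for values past the threshold in neither fit. For MLN4924 in hypoxia, array weights gave Mtor -0.08, Rptor -0.06 and Rictor -0.11, length bins gave Rictor -0.11, and leaving out 1 library gave Mtor -0.14 to 0.35, Rptor -0.11 to 0.62 and Rictor -0.10 to 0.17, each lowest without DMSO hypoxia replicate 1. For MLN4924 normoxia against DMSO hypoxia, Deptor gave -0.08 with array weights, -0.09 with length bins and -0.09 to 0.25 with 1 library left out, and such omissions gave Mtor -0.02 to 0.47, Tsc2 -0.02 to 0.94 and Rheb -0.26 to 0.00. The Rictor interaction gave -0.05 with array weights and -0.09 with length bins. The cause was not tested.

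Listed pathway genes past the threshold numbered 20 for hypoxia in DMSO (12 with the groups alone), 11 for MLN4924 in normoxia (7 unfiltered, 20 with array weights, 20 with the groups alone, 7 to 21 with 1 library left out), 14 for MLN4924 in hypoxia (2 with the groups alone, 8 to 22 with 1 left out), 17 for hypoxia under MLN4924 (11 unfiltered, 28 with array weights, 26 with the groups alone, 10 to 26 with 1 left out), 28 for MLN4924 normoxia against DMSO hypoxia (17 with the groups alone) and 0 for the interaction (4 with array weights, 2 with length bins, 0 to 2 with 1 left out). Over all tested genes, counts moved by over 1.5 times for hypoxia in DMSO (4093, and 2221 with the groups alone), MLN4924 in normoxia (2467, and 4524 with array weights, 4066 with the groups alone, up to 4212 with 1 left out), MLN4924 in hypoxia (3137, and 1264 with the groups alone), hypoxia under MLN4924 (3473, and 5339 with array weights, up to 5231 with 1 left out) and the interaction (232, and 843 with array weights, 132 with the replicate block, 422 with length bins, 90 to 678 with 1 left out). Median-of-ratios scaling moved the median gene of hypoxia in DMSO to -0.03, from -0.08 as deposited.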
